A study of Mus musculus with 12 samples.

Results

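The right medial prefrontal cortex (mPFC) of mice with a constricted left sciatic nerve, the hemisphere opposite to the injury, was compared with the mPFC of naive mice by RNA sequencing. The comparison was chosen by the library labels alone: 4 contralateral libraries (contralateral 1 to 4) against 4 naive libraries (naive 1 to 4), 8 of the 12 libraries of the series. Of the 34745 genes in the deposited count table, 12097 had no count in any of the 8 libraries, and the 15558 genes with enough counts were tested. All mice were wild-type males. The contralateral tissue was taken 28 days after chronic constriction injury (CCI) of the nerve, and the naive mice received no treatment and were sampled after 28 days of habituation. Age, strain and the hemisphere of the naive samples are not given in the labels. No sham-operated group is among the samples used here, so the nerve injury and the surgery that comes with it cannot be told apart, nor can they be told apart from the hemisphere. Nothing in the labels says outright that each library came from a separate mouse, and the p-values below measure only the spread between these samples.

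CCI is a rodent model of neuropathic pain in which loose ligatures are tied around the sciatic nerve. The mPFC is the part of the frontal cortex that takes part in the affective and cognitive side of pain. Its tissue holds glutamatergic pyramidal neurons, GABAergic interneurons, astrocytes, oligodendrocytes, microglia and vessel cells, and a whole-tissue library sums the RNA of all of them. Markers of both neuron classes were present in every library, which alone does not establish the region. Slc17a7, the vesicular glutamate transporter of cortical pyramidal neurons, lay between 1657 and 1912 CPM (counts scaled to the size of the library) in the 8 libraries, and Gad1, the GABA-synthesising enzyme, between 309 and 374 CPM. Ttr, the defining gene of the choroid plexus, lay between 0.437 and 5.71 CPM.

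Depth was nearly even, but contralateral libraries differed among themselves more than naive ones did. Total counts were 16.1 to 17.9 M (mega-counts) per library in the contralateral and 16.8 to 17.8 M in the naive group. Among 10203 genes with a mean of at least 10 CPM, the standard deviation (SD) of log2 CPM was larger in the contralateral group for 6701 genes (65.7%), with a median SD of 0.124 against 0.0937. Contralateral 2, which had the lowest total, stood at -34.9 on the first principal component (24.7% of variance), while contralateral 3 and 4 stood at 15.6 and 25.2 and the naive libraries between -5.53 and 6.42. Contralateral 1 stood apart on the second component (30.5; 15.9% of variance) and was the one library with high striatal transcripts, described with the cell types below. Counts of genes are therefore also given without these libraries.

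Few genes separated the groups. With edgeR's quasi-likelihood test and Benjamini-Hochberg adjustment, 1 of the 15558 genes passed an adjusted p of 0.05 (0.00643%), the predicted transcript Gm21982, which was lower in the contralateral mPFC. Before adjustment, p was under 0.05 for 498 genes (3.20%), of which 273 (1.75% of the tested genes) were higher and 225 (1.45%) lower. For 344 genes (2.21%) the ranges of both groups did not overlap, with 163 higher (1.05%) and 181 lower (1.16%). Differences were small: the median absolute log2 fold change of genes with a mean of at least 10 CPM was 0.056, against a median standard error (SE) of 0.085, and 16 of the 10203 genes differed by 1 or more on the log2 scale. DESeq2 called 8 genes (0.0515%), and limma voom called 0, with 510 genes at an unadjusted p under 0.05. The edgeR count was 2 without contralateral 1, 2 without contralateral 2, 0 without contralateral 3, 5 without contralateral 4, 0 without naive 2 and 3 without naive 3. With contralateral 2 left out, the genes at an unadjusted p under 0.05 numbered 1273 in place of 498.

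**Figure D1:**
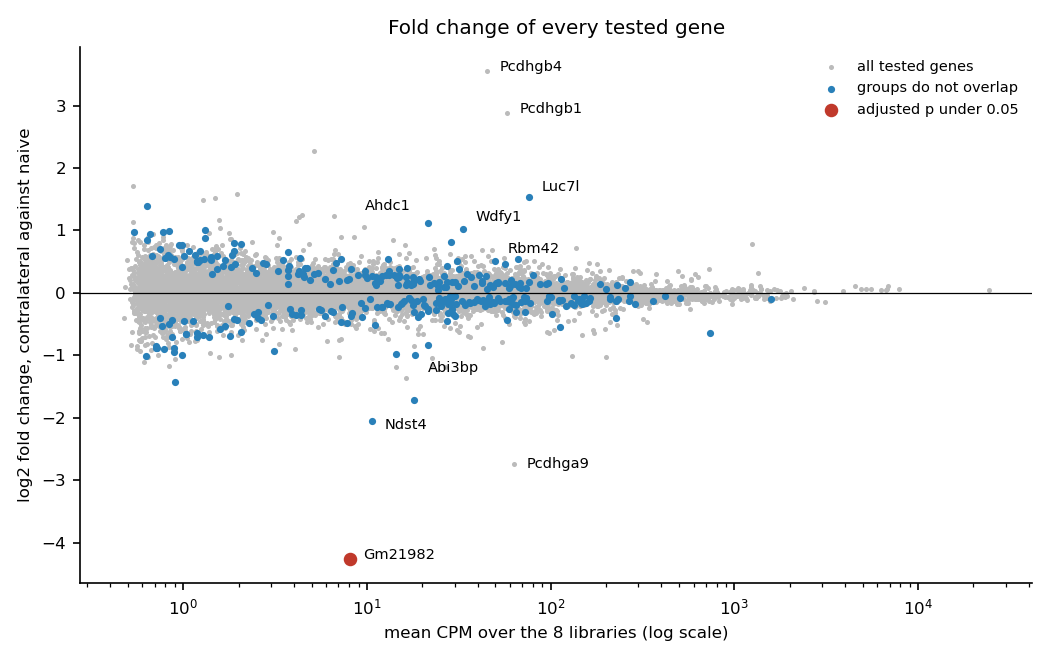
Log2 fold change (contralateral against naive) of each of the 15558 tested genes against its mean CPM over the 8 libraries (log axis). Grey points are all genes, blue points the 344 genes whose groups do not overlap, and the red point is Gm21982, the 1 gene with an edgeR adjusted p under 0.05; most points lie close to 0.

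Gm21982 had by far the smallest p, and a neighbour with which it shares exons differed in the opposite direction. GENCODE lists Gm21982 (ENSMUSG00000094365; GRCm38, chromosome 7, 30641001 to 30664937, minus strand) as a non-coding processed transcript with a single isoform of 25 exons. The isoform starts with exons of Haus5, a subunit of the augmin complex of the mitotic spindle, and runs on into the exons of Rbm42, an RNA-binding protein gene. Of the exonic bases of Gm21982, 1952 (51.1%) are also exonic in Haus5 and 1650 (43.2%) in Rbm42, where they make up 75.4% of all exonic bases. A read within the shared bases can therefore belong to either gene, unless it also covers other bases or a junction that one model alone holds. The junctions where the models of Haus5 and Gm21982 part are shown here to make clear how far they are the same sequence; no reads over them were counted. Both sequences are read 5′ to 3′ from GENCODE transcripts of GRCm38 (minus strand): 30 bases of the last shared Haus5 exon in lower case (chr7:30654170-30654199), then 30 bases of the next exon in capitals, which is the final Haus5 exon for Haus5-201 (chr7:30654026-30654055) and an exon within the first exon of Rbm42 for Gm21982-201 (chr7:30650154-30650183).
Haus5-201: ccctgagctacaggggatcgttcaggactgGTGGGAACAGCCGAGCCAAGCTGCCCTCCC
Gm21982-201: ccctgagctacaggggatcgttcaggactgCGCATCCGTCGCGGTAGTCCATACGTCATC

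Gm21982 stood at 1.37, 0.437, 0.905 and 0.443 CPM in contralateral 1 to 4, which is 25, 7, 16 and 8 counts. In naive 1 to 4 it stood at 20.1, 19.3, 10.5 and 11.9 CPM. The groups were far apart, and the log2 fold change was -4.26 (SE 0.37; edgeR adjusted p = 0.0228), lower in 4 of 4 contralateral libraries. The call was lost with limma voom (adjusted p = 0.387), without a filter on low counts (edgeR adjusted p = 0.0858), in the fit of 12 libraries (edgeR adjusted p = 1.00), and without contralateral 2, contralateral 3 or naive 2 (edgeR adjusted p = 0.0739 to 0.204). Rbm42 lay the other way, at 60.5, 55.7, 57.6 and 59.1 CPM in contralateral and 35.7, 35.7, 48.3 and 44.2 CPM in naive libraries. Its groups did not overlap either, with a log2 fold change of 0.51 (SE 0.10), which did not pass in edgeR (adjusted p = 1.00) and passed in DESeq2 (adjusted p = 0.0217).

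When the counts of Rbm42 and Gm21982 were added, the difference was nearly gone. The sum was 61.9, 56.2, 58.5 and 59.5 CPM in contralateral 1 to 4 and 55.8, 55.0, 58.7 and 56.2 CPM in naive 1 to 4. The means were 59.0 ± 2.38 and 56.4 ± 1.60 CPM (SD, n = 4 each), a ratio of 1.05, and the ranges overlapped. Gm21982 made up 0.743 to 2.21% of this sum in contralateral and 17.8 to 36.1% in naive libraries. In ipsilateral 1 to 4, the left mPFC of CCI mice, it made up 28.5, 35.2, 0.492 and 0.940%, so left libraries 1 and 2 were at the naive level and left libraries 3 and 4 at the contralateral level. With counts summed over all gene models that share exons on a strand, an alternative chosen after seeing the data, the locus of Rbm42, Haus5 and Gm21982 had a log2 fold change of 0.07 (SE 0.06; edgeR adjusted p = 1.00), and 0 of 15185 genes and loci were called (482 at an unadjusted p under 0.05). Haus5 alone, which was added after its values were seen, ranged from 4.31 to 5.92 CPM in contralateral and from 4.36 to 5.35 CPM in naive libraries, with overlapping groups.

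**Figure D2:**
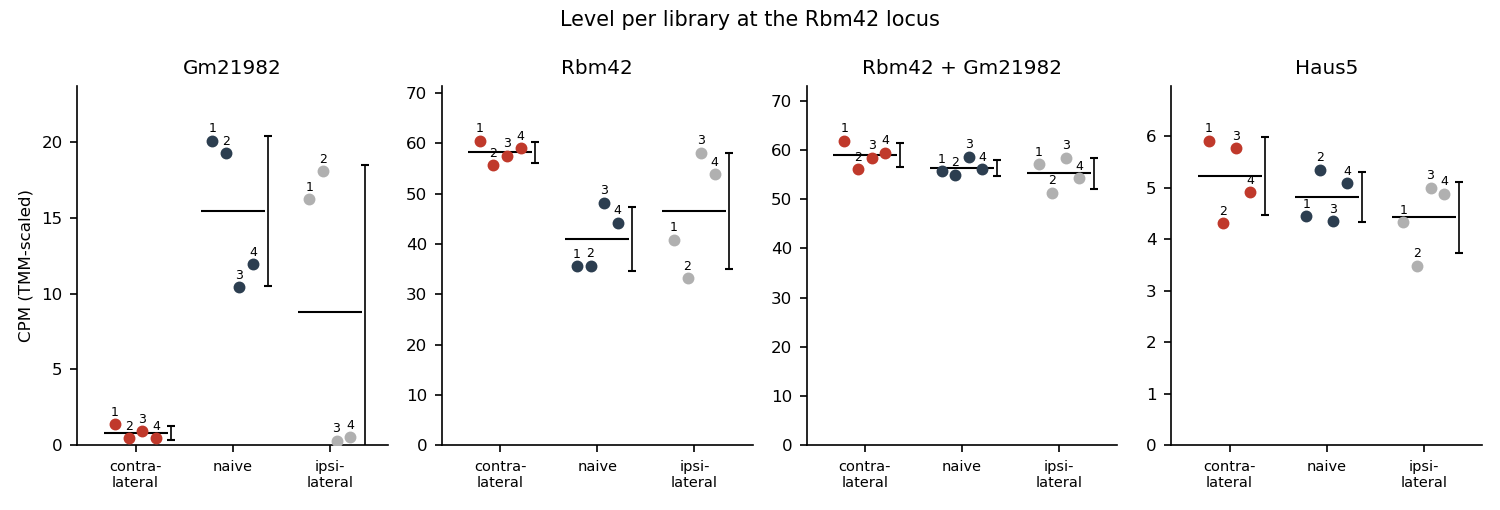
CPM of Gm21982, Rbm42, their sum and Haus5 in each library (points, with the library number; y axes linear from 0) for the contralateral, naive and ipsilateral groups; lines are group means and bars the SD, cut at 0 for ipsilateral Gm21982. The contralateral and naive groups do not overlap for Gm21982 and Rbm42, but overlap for the sum and for Haus5.

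Wdfy1 was the gene of smallest p that shares no exons with a neighbour on its strand. Its protein carries a FYVE zinc finger and WD40 repeats, sits on early endosomes and couples Toll-like receptors 3 and 4 to the adaptor TRIF. Wdfy1 (ENSMUSG00000073643; GRCm38, chromosome 1, 79702262 to 79776143) stood at 54.8, 34.8, 38.3 and 49.7 CPM in contralateral 1 to 4 and at 22.6, 22.5, 19.9 and 22.8 CPM in naive 1 to 4. Every contralateral library lay above every naive one, by a log2 fold change of 1.02 (SE 0.14), and the gene missed the threshold (edgeR adjusted p = 0.18). It passed in DESeq2 (adjusted p = 8.32e-08) and in edgeR without contralateral 2 (log2 fold change 1.12, adjusted p = 0.0204). The left mPFC of CCI mice showed nearly the same levels, 52.0, 39.1, 38.4 and 50.2 CPM, set against the same naive libraries, and libraries numbered 1 and 4 were the higher ones on both sides. Contralateral and ipsilateral levels differed by -0.01 on the log2 scale (SE 0.14; edgeR adjusted p = 0.98). Mrpl44, a mitochondrial ribosome gene on the opposite strand that shares 126 exonic bases with Wdfy1, lay between 16.7 and 19.3 CPM in contralateral and 17.6 and 19.1 CPM in naive libraries (log2 fold change -0.01); it was added after its values were seen.

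The pathway in which Wdfy1 acts was compared next. Of 18 tested genes of endosomal Toll-like receptor signalling, a list that holds Wdfy1 itself, 12 had a positive log2 fold change, with a median of 0.08 against 0.00 over all tested genes. None passed, where 0.00643% of all tested genes did. The groups of 2 members did not overlap, against 2.21% of all tested genes: Wdfy1, around which the list was made, and the kinase gene Tbk1 (49.95 to 57.5 CPM in contralateral, 46.1 to 49.1 CPM in naive; log2 fold change 0.15, SE 0.06). The receptor Tlr3 stood at a log2 fold change of -0.02 and its adaptor Ticam1, which encodes TRIF, at 0.00. Irf3, the transcription factor at the end of this arm, stood at 0.01, and Myd88, the adaptor of the other arm, at -0.27 (SE 0.14). Ripk1, a kinase that joins the pathway to cell death, ranged from 4.75 to 5.92 CPM in contralateral and from 2.75 to 5.001 CPM in naive libraries. Interferon response and antigen presentation genes were positive in 13 of 22 members (median 0.02): Ifit3, an interferon-induced gene, stood at 0.41 (SE 0.19), with overlapping groups.

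The other genes of smallest p did not pass in edgeR (adjusted p = 1.00 for each of those described here). They are ordered here by the known role of each protein, and whether any role is more frequent among them than among all genes was not tested. Abi3bp, an extracellular matrix protein, stood at 7.94, 11.6, 13.6 and 15.7 CPM in contralateral and 26.9, 16.6, 23.4 and 31.1 CPM in naive libraries. Contralateral 4 and naive 2 were less than 1 CPM apart, and the log2 fold change was -1.0 (SE 0.24; DESeq2 adjusted p = 0.0217). Clmp, a cell adhesion molecule of the immunoglobulin family, stood at -0.37 (SE 0.09) and Lmo7, a protein of cell junctions and actin, at -0.30 (SE 0.08). Ust, which sulfates dermatan and chondroitin chains of the matrix, ranged from 15.9 to 19.6 CPM in contralateral and from 20.1 to 23.8 CPM in naive libraries. Lims1, an adaptor of integrin contacts, lay on the other side, at 28.5 to 35.7 CPM against 21.5 to 27.2 CPM (log2 fold change 0.43, SE 0.10). The groups of these 5 genes did not overlap, as for 2.21% of all tested genes. The 5 were chosen by small p in this same comparison, which favours separate groups.

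Sh3kbp1, an adaptor of receptor endocytosis, ranged from 23.2 to 25.9 CPM in contralateral and from 29.4 to 32.8 CPM in naive libraries (log2 fold change -0.32, SE 0.07). Lmbr1, a membrane protein gene that holds the limb enhancer of Shh in an intron, ranged from 21 to 27.1 CPM against 29.4 to 33.7 CPM (-0.45, SE 0.09). Tmem260, an endoplasmic reticulum membrane protein, stood at 10.2, 10.2, 8.60 and 9.51 CPM in contralateral and 24.0, 19.2, 11.2 and 22 CPM in naive libraries. It passed in DESeq2 with all libraries (adjusted p = 0.0150). Naive 3 was close to the contralateral libraries, and without it the log2 fold change of Tmem260 went from -0.98 (SE 0.21) to -1.17 and passed in edgeR as well (edgeR adjusted p = 0.00842). Chn2, a GTPase-activating protein for Rac, stood at 0.29 (SE 0.07), and Scn3b, the β3 subunit of voltage-gated sodium channels, at 0.30 (SE 0.08). For Scn3b the contralateral libraries lay at 34.9 to 41.2 CPM, above the naive at 27.5 to 33.6 CPM and above the ipsilateral at 25 to 34.4 CPM.

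Zfp189, a zinc finger protein gene, ranged from 5.31 to 6.44 CPM in contralateral and from 7.71 to 9.08 CPM in naive libraries (log2 fold change -0.47, SE 0.12). Tfap2d, an AP-2 transcription factor, was near the floor of detection, at 0.283 to 0.774 CPM against 1.17 to 1.67 CPM (-1.42, SE 0.33). Tcf7, a Wnt effector, stood at 0.66 (SE 0.18) and the zinc finger gene Zscan29 at 0.54 (SE 0.15). Ahdc1, a DNA-binding protein with AT-hooks, ranged from 20.2 to 42.4 CPM in contralateral and from 8.30 to 18.4 CPM in naive libraries (1.13, SE 0.29). It passed in DESeq2 (adjusted p = 0.0217).

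Sfi1, a centrin-binding protein of centrioles, stood at a log2 fold change of 0.39 (SE 0.10), Klhl14, a Kelch family protein, at -0.92 (SE 0.23) and Fam43b at -0.25 (SE 0.07). Sfi1 shares exonic bases with Drg1 on the same strand, and whether reads were divided between them was not tested. The histidine-degrading enzyme gene Amdhd1 ranged from 0.332 to 0.500 CPM in contralateral and from 0.761 to 0.956 CPM in naive libraries. Lct, which encodes lactase, stood at 1.48 to 2.21 CPM against 0.478 to 1.35 CPM, and Elmo3, an engulfment adaptor gene, at 1.56 to 1.83 CPM against 0.501 to 1.23 CPM. These last 3 genes had only a few CPM, so small numbers of reads set their fold changes. The uncharacterised 4930447C04Rik, which DESeq2 called (adjusted p = 0.0216), ranged from 26.9 to 51.5 CPM in contralateral and from 19.2 to 21.6 CPM in naive libraries (0.82, SE 0.18).

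**Figure D3:**
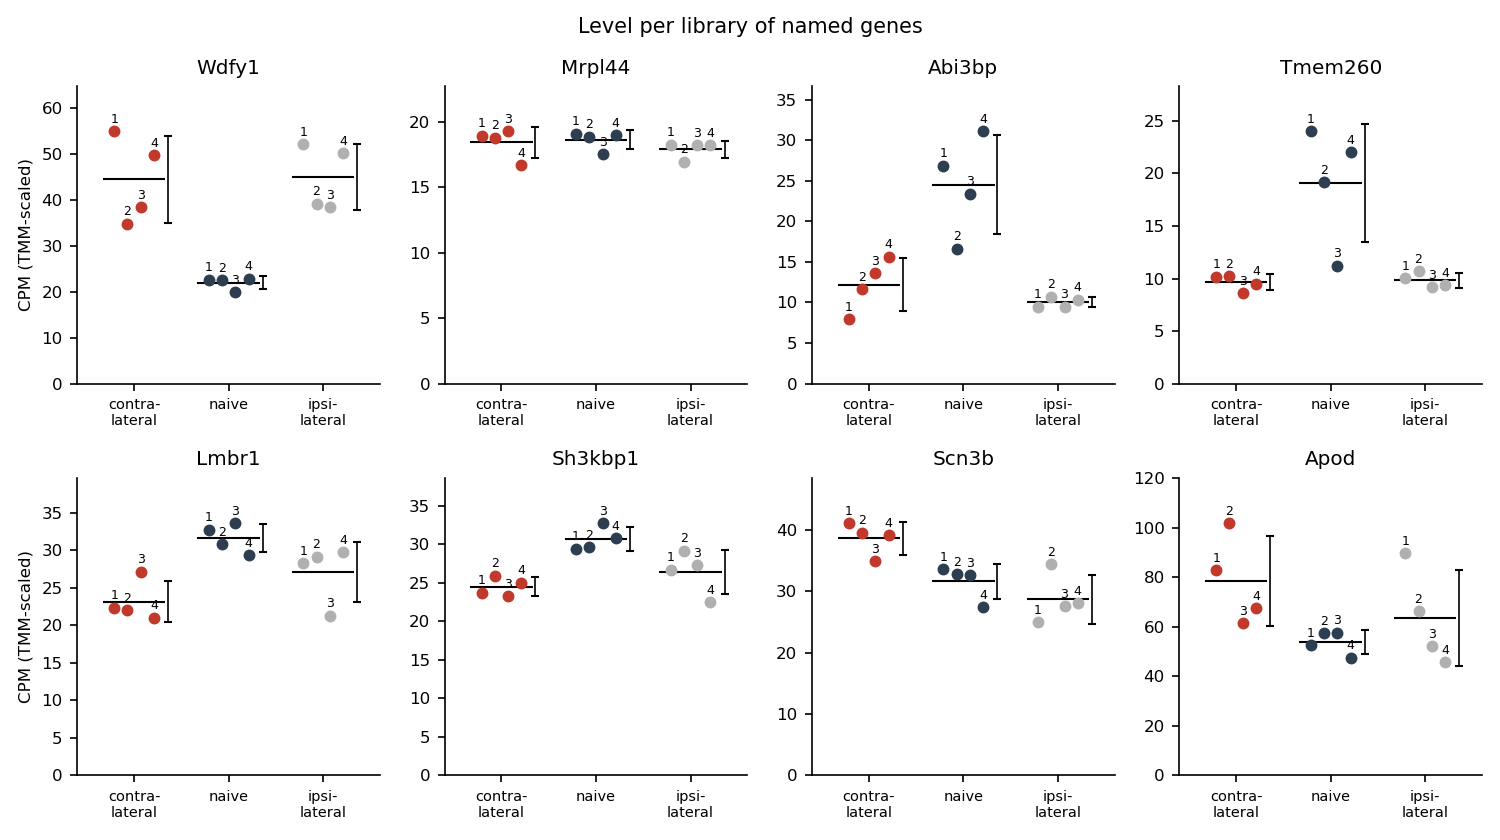
CPM of 8 named genes in each contralateral, naive and ipsilateral library (points with library numbers; y axes linear from 0; lines are means, bars SD). Wdfy1, Scn3b and Apod lie higher in all 4 contralateral than in all 4 naive libraries, Abi3bp, Tmem260, Lmbr1 and Sh3kbp1 lower, and Mrpl44 overlaps; the ipsilateral group is shown for reference.

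Many of the largest fold changes came from single libraries. Of the 16 genes with a mean of at least 10 CPM and a log2 difference of 1 or more, 5 were higher and 11 lower. The groups of 6 did not overlap, against 2.21% of all tested genes: Luc7l, Ahdc1, Wdfy1, Abi3bp, Pcdhgb2 and Ndst4. The 16 were chosen by their difference between these same groups, which favours separate groups. Among the 16 are members of the clustered γ-protocadherins, cell surface proteins that share 3′ exons, for which counting can divide reads between genes. Pcdhgb4 stood at 291 CPM in contralateral 1 and at 6.001 to 27.7 CPM in the other 7 libraries, and Pcdhgb1 at 338 CPM in contralateral 2 and at 8.54 to 49.1 CPM elsewhere. Pcdhga9 reached 360 CPM in naive 4, against 8.52 to 36.1 CPM in the rest, and Pcdhgb2 81.1 CPM in naive 2, against 8.03 to 10.01 CPM. The potassium channel gene Kcnd3 was at 81.7 CPM in naive 1 and at 12.01 to 16.5 CPM in the other libraries. The transcription factor gene Nfe2l1 was at 415 CPM in naive 4 and at 71.4 to 105 CPM in the other libraries. Genes of this paragraph other than the 6 were chosen after their values were seen.

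In a further set of genes the 8 libraries fell on 2 separate levels, with nothing between. A gene was counted here, by a rule set after seeing the data, when the largest gap between its ordered libraries was at least 0.7 on the log2 scale and at least 2 times the range within either level, with at least 2 libraries on each. This held for 88 of the 10203 genes. In 0 of the 88 did the gap run between the groups. In 13 genes all naive libraries shared a level and the contralateral libraries lay on both, and the other 75 had naive libraries on both levels.

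The best example was Luc7l, a splicing factor of the U1 snRNP. It stood at 46.8, 136, 130 and 138 CPM in contralateral 1 to 4 and at 36.4, 43.4, 41.4 and 35.7 CPM in naive 1 to 4. Contralateral 2, 3 and 4 were thus about 3 times as high as all others, while contralateral 1 was at the naive level, and among ipsilateral libraries only number 3 was high (45.3, 42.9, 134 and 37.6 CPM). The log2 fold change of Luc7l was 1.53 (SE 0.34; edgeR adjusted p = 1.00, DESeq2 adjusted p = 0.0245) with all libraries and 1.78 without contralateral 1 (edgeR adjusted p = 2.6e-05).

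Other genes had contralateral 4 on the naive level. Ndst4, a sulfotransferase of heparan sulfate, stood at 1.48, 1.5, 2.21 and 11.3 CPM in contralateral and 22.4, 12.4, 17.1 and 16.8 CPM in naive libraries (log2 fold change -2.04, SE 0.68). All ipsilateral libraries of Ndst4 were low, at 0.913 to 1.65 CPM. The tyrosine kinase gene Abl1 stood at 31.1, 28.7, 29.0 and 71.0 CPM in contralateral, and between 66.5 and 72.2 CPM in naive libraries. Pds5a, a cohesin regulator, had the same order with a smaller gap, at 43.6, 42.3, 42.7 and 64.1 CPM against 61.8 to 65.8 CPM, as had Ube2e2, a ubiquitin-conjugating enzyme gene, in the other direction (42.4, 46.2, 46.1 and 25.7 CPM against 26.9 to 29.6 CPM). All 4 passed in edgeR when contralateral 4 was left out: Ndst4 at a log2 fold change of -3.30 (adjusted p = 0.00144), Abl1 at -1.22 (0.000104), Pds5a at -0.58 (0.0127) and Ube2e2 at 0.66 (0.0127). Rasa3, a Ras GTPase-activating protein, had contralateral 2 at the naive level (52.3, 83.9, 53.2 and 58.0 CPM against 79.9 to 87.0 CPM) and passed without it (edgeR adjusted p = 0.0204). Txndc5, a disulfide isomerase of the endoplasmic reticulum, had naive 3 at the contralateral level (31.0, 27.4, 56.2 and 30.6 CPM in naive against 49.6 to 56.7 CPM in contralateral libraries) and passed without that library (edgeR adjusted p = 0.00842). Abl1, Ube2e2, Rasa3 and Txndc5 were named because a fit that leaves out a library called them. Their passing there repeats that choice, and with all libraries no gene of this paragraph passed in edgeR.

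In another 9 genes 2 contralateral libraries shared a high level with the naive libraries and the other 2 were low. Which they were differed from gene to gene. Cx3cl1, the neuronal chemokine that acts on microglia, stood at 785, 352, 378 and 764 CPM in contralateral and 832 to 999 CPM in naive libraries. The zinc finger gene Zfp664 had contralateral 3 and 4 low, at 23.4 and 25.8 CPM, and the other 6 libraries between 110 and 131 CPM. Rsrc1, a splicing-related gene, had the other order, with contralateral 2 and 4 high at 39.4 and 35.0 CPM and the rest at 19.96 to 21.4 CPM. Slc1a2, the main glutamate transporter of astrocytes, belonged to the 75 genes with both levels in the naive group: contralateral 3, contralateral 4 and naive 3 stood at 2714, 2784 and 2496 CPM, and the other libraries between 316 and 509 CPM. Eif4h, a translation initiation factor, had a smaller gap, with contralateral 1 and 4 high, at 396 and 371 CPM, and the other libraries at 241 to 251 CPM. Zfp664, Rsrc1 and Slc1a2 were picked as examples after their values were seen. What sets these levels was not tested.

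**Figure D4:**
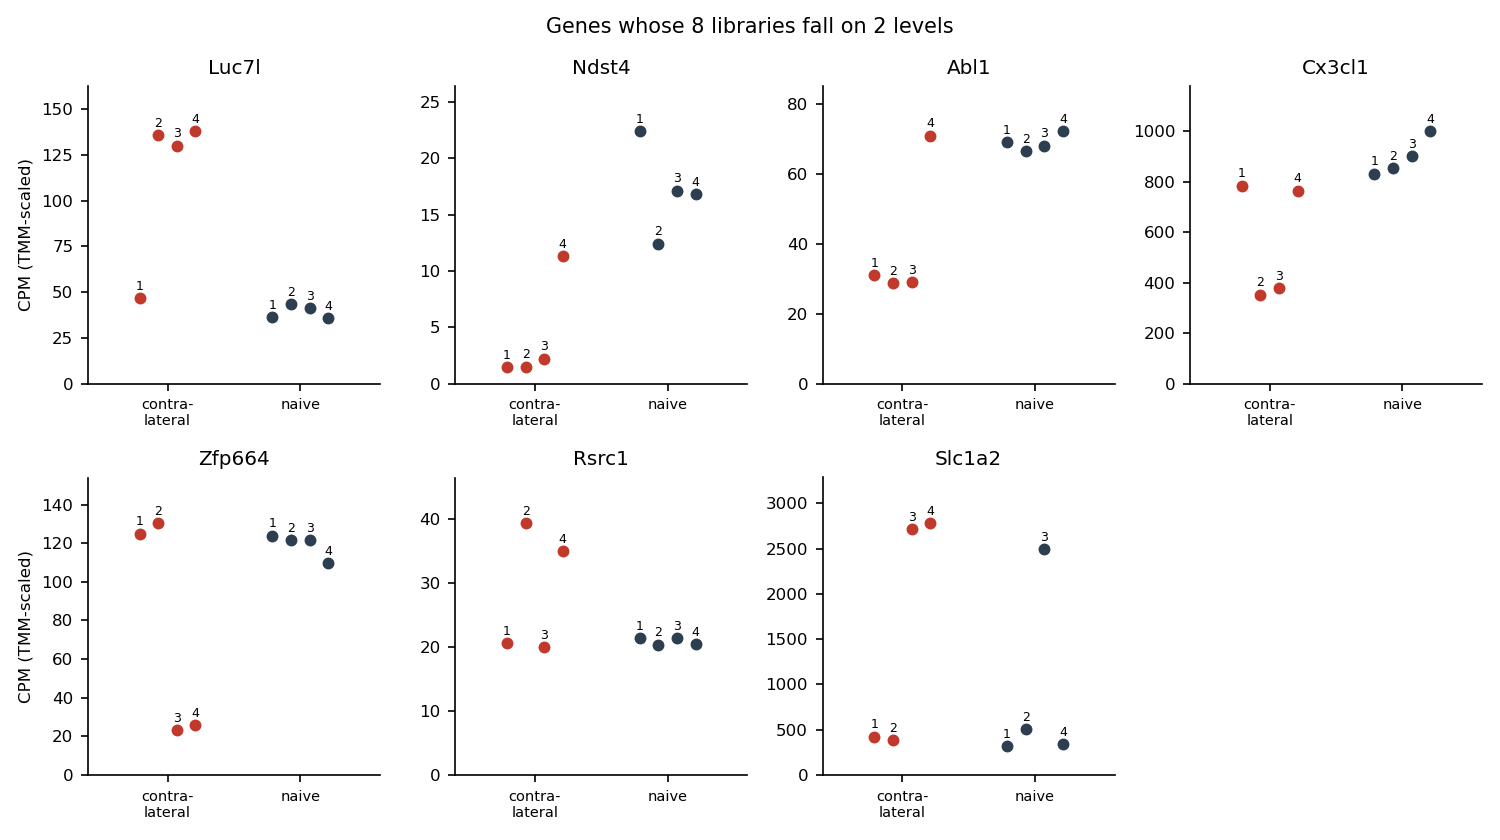
CPM of 7 genes whose libraries fall on 2 levels, for contralateral and naive libraries (points with library numbers; y axes linear from 0). The libraries on each level differ between genes: 3 contralateral libraries are high for Luc7l, contralateral 4 joins the naive libraries for Ndst4 and Abl1, and Slc1a2 has both levels in both groups.

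Lists of marker and pathway genes were described by the number of members with a positive log2 fold change and by the median, beside all tested genes (8106 of 15558 positive, median 0.00). No list member passed the edgeR threshold in any of the 31 lists. In such tissue, fewer cells of a type and less RNA per cell cannot be told apart. Each library also received a score per list: every member's log2 CPM was taken relative to its own mean over the naive libraries, and these values were averaged over the list. Naive scores therefore centre on 0 by construction.

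All 22 oligodendrocyte and myelin genes had a positive log2 fold change, with a median of 0.30, but this came from 2 libraries. The myelin scores were 0.64 and 0.78 in contralateral 1 and 2 and -0.22 and -0.33 in contralateral 3 and 4, against -0.29 to 0.20 in naive libraries. Mobp, a protein of central myelin, stood at 1109, 1178, 516 and 500 CPM in contralateral and at 515 to 760 CPM in naive libraries. Mbp, which holds the myelin layers together, stood at 751, 843, 460 and 442 CPM against 467 to 579 CPM. Contralateral 3 and 4 lay below the lowest naive library for Mbp and near it for Mobp. Without contralateral 1 and 2 the median of the list was -0.31. The share of counts from mitochondrially encoded genes divided the contralateral libraries in the same way, at 6.89, 7.17, 8.66 and 9.28% in contralateral 1 to 4 against 6.95 to 8.25% in naive libraries, and its part in the list results was not tested. Apod, a lipid-binding lipocalin, was the 1 of 22 members whose groups did not overlap, against 2.21% of all tested genes (82.9, 102, 61.4 and 67.4 CPM against 47.5 to 57.6 CPM; log2 fold change 0.55, SE 0.15; edgeR adjusted p = 1.00). Oligodendrocyte precursor markers had 13 of 14 positive values with a median of 0.12: Gpr17 stood at 0.19 (SE 0.08), Olig2 at 0.17 (SE 0.10) and Pdgfra at 0.12 (SE 0.09), with overlapping groups.

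The same libraries differed in other cell types. Striatum markers had a score of 1.00 in contralateral 1 and of -0.18 to -0.04 in the other contralateral libraries, against -0.03 to 0.05 in naive ones. Drd2, the D2 dopamine receptor, stood at 8.77 CPM in contralateral 1 and between 0.703 and 1.62 CPM in the other 7 libraries, and the adenosine receptor gene Adora2a at 15.2 CPM against 2.05 to 3.65 CPM. Without contralateral 1 the median of the 15 striatum markers went from 0.17 to -0.05. Meningeal and fibroblast markers had a score of -1.16 in contralateral 2 and of -0.01 to 0.49 in the other contralateral libraries, against -0.24 to 0.38 in naive ones. Mural cell markers had their lowest score in contralateral 2 as well (-0.46), and Fmod, a collagen-binding proteoglycan of the meninges, stood at 1.12 CPM there and at 3.73 to 7.61 CPM in the naive libraries.

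Astrocyte and microglia markers were positive in 16 of 20 members each, with medians of 0.10 and 0.09. Gfap, the astrocyte filament, stood at 119 CPM in contralateral 1, and at 51.0 to 64.8 CPM in the other contralateral and 50.1 to 64.5 CPM in the naive libraries (log2 fold change 0.42, SE 0.26). Hepacam, an astrocyte adhesion protein, was the 1 of 20 astrocyte markers without overlap, against 2.21% of all tested genes (88.1 to 97.0 CPM against 75.4 to 88.1 CPM; 0.15, SE 0.07), and the nearest libraries of both groups were level at this precision. Of the microglia genes, Sall1, which holds microglial identity, ranged from 27.3 to 30.5 CPM in contralateral and from 23.4 to 27.1 CPM in naive libraries (0.17, SE 0.07). The purinergic receptor gene P2ry12 stood at 0.34 (SE 0.21), Aif1 at 0.06 (SE 0.22) and Trem2 at 0.00 (SE 0.14), each with overlapping groups. Within the contralateral group, microglia scores were higher in libraries 3 and 4 (0.15 and 0.32) than in libraries 1 and 2 (-0.04 and -0.12), the reverse of the myelin scores, and naive scores lay between -0.14 and 0.15. Astrocyte scores had the same division, at -0.01, -0.19, 0.27 and 0.37 in contralateral 1 to 4 against -0.08 to 0.08 in naive libraries. Slc1a2, 1 of the 20 members and a gene at 2 levels, stood at 425, 384, 2714 and 2784 CPM in contralateral 1 to 4. Its part in these scores was not tested. Of 18 cytokine and chemokine genes 12 had enough counts, and 10 of these were positive (median 0.10). The groups of 1 of the 12, Cx3cl1, did not overlap, against 2.21% of all tested genes, and it was lower in the contralateral group. Il1a lay at 0.657 to 0.830 CPM in contralateral and 0.358 to 1.06 CPM in naive libraries. Endothelial markers were positive in 13 of 16 members (median 0.07), again with higher scores in contralateral 3 and 4 (0.20 and 0.29) than in contralateral 1 and 2 (-0.08 and -0.19), against -0.16 to 0.13 in naive libraries.

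**Figure D5:**
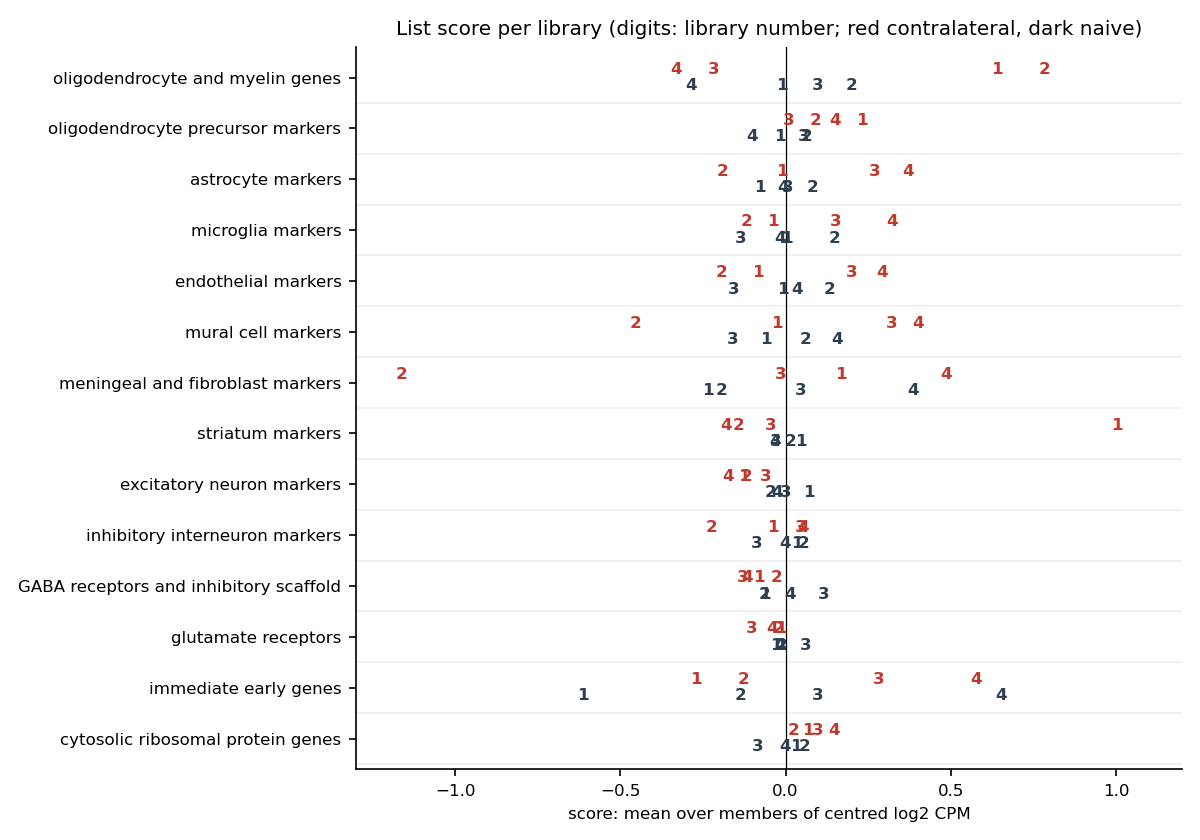
Score of 14 gene lists in each library (x axis: mean over members of log2 CPM centred on the naive mean, digits: library numbers, red contralateral, dark naive). Contralateral 1 and 2 have the highest myelin scores, contralateral 1 alone the highest striatum score and contralateral 2 the lowest meningeal and mural scores. Excitatory neuron scores lie slightly lower in all contralateral than in all naive libraries, and contralateral 2 has the lowest interneuron score. GABA and glutamate receptor scores lie near 0.

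Most receptor genes of neurons had slightly negative fold changes. Of 17 genes of GABA receptors and the inhibitory postsynapse, 16 had a negative log2 fold change, with a median of -0.06. Nlgn2, the adhesion molecule of inhibitory synapses, stood at 287, 284, 259 and 250 CPM in contralateral and 302, 309, 297 and 323 CPM in naive libraries. Its groups did not overlap (-0.18, SE 0.06; edgeR adjusted p = 1.00), but ipsilateral libraries lay at 292 to 329 CPM. Gphn, the gene of the scaffold that holds these receptors at the synapse, stood at -0.09 (SE 0.08), with overlapping groups. The scores of this list were -0.13 to -0.03 in contralateral and -0.06 to 0.12 in naive libraries, so they overlapped too.

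Glutamate receptors were negative in 16 of 24 members (median -0.05). Gria4, an AMPA receptor subunit, ranged from 120 to 144 CPM in contralateral and from 144 to 150 CPM in naive libraries (log2 fold change -0.12, SE 0.06), and Gria3 and Grin2a stood at -0.12 and -0.15. The obligatory NMDA receptor subunit gene Grin1 stood at 0.03 and Grin2b at -0.05. Of 28 monoamine and acetylcholine receptors 20 were negative (median -0.04). The serotonin receptor genes Htr1a and Htr2c stood at -0.31 (SE 0.12) and -0.35 (SE 0.16), with 1 contralateral library of Htr1a, number 2, at 32.2 CPM within the naive range of 28.4 to 36.4 CPM. Voltage-gated ion channels were negative in 22 of 34 members (median -0.05), and the groups of 1 of the 34, Scn3b, did not overlap, near the 2.21% of all tested genes. The calcium channel subunit gene Cacna2d3 stood at -0.17 (SE 0.07). Cacna2d1, the target of gabapentin, stood at 107, 227, 102 and 103 CPM in contralateral and 268, 250, 109 and 191 CPM in naive libraries, with a low library in the naive group as well.

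Markers of neuron classes had medians near 0. Excitatory neuron markers were positive in 8 of 20 members (median -0.05), and Tbr1, a transcription factor of deep-layer neurons, stood at 196, 120, 77.1 and 144 CPM in contralateral against 192 to 241 CPM in naive libraries (log2 fold change -0.64, SE 0.26). Without contralateral 2 the median of these markers was -0.14. Their scores lay between -0.17 and -0.06 in contralateral and between -0.05 and 0.07 in naive libraries, so these ranges did not overlap. The difference in scores was not tested. Interneuron markers were positive in 11 of 22 members (median 0.00), with scores of -0.23 in contralateral 2 and -0.09 to 0.05 in naive libraries. Sst stood at 0.08 (SE 0.07), Vip at 0.07 (SE 0.13) and Gad1 at -0.08 (SE 0.07). Pvalb, the marker of fast-spiking interneurons, stood at 17.0, 40.2, 35.9 and 25.2 CPM in contralateral and at 31.1 to 35.8 CPM in naive libraries, with contralateral 1 lowest. Dlx6 (0.42, SE 0.16) and Dlx1 (-0.43, SE 0.21), transcription factors of the same interneuron lineage, lay on opposite sides.

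Genes of pain modulation and of activity gave no difference beyond the spread. Opioid and endocannabinoid genes were positive in 8 of 14 members (median 0.02), with the nociceptin receptor gene Oprl1 at 0.31 (SE 0.14). The enkephalin precursor gene Penk stood at 70.8 CPM in contralateral 1 and at 33.4 to 46.8 CPM in the other 7 libraries. Penk is also on the list of striatum markers, and contralateral 1 was the library with high striatal transcripts. The µ-opioid receptor gene Oprm1 was under the filter, at 0.0553 to 0.438 CPM in contralateral and 0.167 to 1.02 CPM in naive libraries. Neurotrophic factors and receptors were positive in 7 of 18 members (median -0.02), with Bdnf at 21.4 to 24.8 CPM against 19.9 to 26.5 CPM. Immediate early genes, which neurons transcribe within minutes of activity, were positive in 15 of 25 members (median 0.06) and varied widely within both groups. Fos stood at 18.0, 31.1, 46.9 and 74.8 CPM in contralateral and 8.30, 27.8, 37.9 and 80.1 CPM in naive libraries, and Arc at 65.9, 141, 225 and 299 CPM against 47.7, 120, 172 and 379 CPM. Libraries numbered 1 were lowest and those numbered 4 highest in both groups. The same held for the ipsilateral libraries, with Fos at 21, 39.0, 43.4 and 64.6 CPM and Arc at 77.8, 143, 202 and 275 CPM in ipsilateral 1 to 4. What the numbers share is not given in the labels. The contralateral log2 fold changes of 0.16 (SE 0.72) and 0.03 (SE 0.72) are small beside their errors.

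Lists of hormone response, clock, stress and metabolic genes had medians between -0.09 and 0.10. Glucocorticoid response genes were positive in 16 of 19 members (median 0.10). Zbtb16, a transcription factor induced by glucocorticoids, ranged from 42.6 to 51.2 CPM in contralateral and from 36.2 to 42.0 CPM in naive libraries (log2 fold change 0.20, SE 0.08), and Tsc22d3 stood at 0.26 (SE 0.11), Fkbp5 at 0.04 (SE 0.08) and Sgk1 at 0.03 (SE 0.09). Clock genes were positive in 12 of 16 members (median 0.07). Dbp, a clock output gene, stood at 65.0, 63.8, 87.7 and 89.9 CPM in contralateral and 58.2 to 64.6 CPM in naive libraries, high in contralateral 3 and 4, and Per3 stood at 0.20 (SE 0.08). The time of day at which tissue was taken is not given in the labels. Cytosolic ribosomal protein genes were positive in 38 of 40 members with a median of 0.07, for example Rplp1 at 0.16 (SE 0.08) and Rpl4 at 0.01 (SE 0.05), and many have near-identical copies that can take their reads. Mitochondrially encoded genes were positive in 12 of 13 members (median 0.06), with scores of -0.18, -0.05, 0.15 and 0.25 in contralateral 1 to 4 against -0.14 to 0.12 in naive libraries, so that contralateral 3 and 4 carried the sign. Nuclear genes of oxidative phosphorylation were positive in 8 of 35 (median -0.03). Heat shock and chaperone genes were positive in 5 of 15 (median -0.09).

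The strain of the mice is not given, so genes that differ between C57BL/6 substrains were listed as well. Nnt, a mitochondrial transhydrogenase gene mutated in one of them, stood at 21 to 22.7 CPM in contralateral libraries and at 21.7, 30.9, 21.3 and 38.9 CPM in naive 1 to 4. The naive group held both low and high libraries, and the groups overlapped. The GABA receptor gene Gabra2 and the insulin-degrading enzyme gene Ide, which carry other such differences, stood at log2 fold changes of -0.03 and 0.02.

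Contralateral and ipsilateral mPFC of CCI mice were compared last, in a fit of all 12 libraries. Left and right libraries carry the same numbers, and the labels do not say whether a number stands for 1 mouse. The 12-library fit treats them as independent. Of 15808 tested genes edgeR called 0 (0%), with 1322 at an unadjusted p under 0.05 and a smallest adjusted p of 0.592; DESeq2 and limma voom also called 0. Gm21982 stood at a log2 difference of -3.46 (SE 1.19), since its ipsilateral libraries lay on both levels. Without contralateral 2, edgeR called 159 genes, 73 higher and 86 lower on the contralateral side, so this count rests on that library. An edgeR fit of the CCI libraries alone, with the library number as a block, called 0 of 15526 genes. In that fit 725 genes had an unadjusted p under 0.05. In the edgeR fit of all 12 libraries, contralateral against naive gave 0 called genes and 597 at an unadjusted p under 0.05.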

How the data were processed

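RNA from 12 mPFC samples was sequenced, and the 4 contralateral and 4 naive libraries were compared. The values tested are the raw read counts of each gene that the authors deposited. The columns that per the file headers hold FPKM, a length-scaled value, served for no test. HISAT2 2.0.4 and the build GRCm38/mm10 are named in the submitters' processing notes, which were used without knowing the role of each. How reads were assigned to genes, and with which annotation, is not given in the sources. No per-sample column was left without a library.

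Counts were tested with edgeR 4.0.16 (R 4.3.3; TMM factors, filterByExpr by group, robust quasi-likelihood fit of the 8 libraries), two-sided, at a Benjamini-Hochberg adjusted p under 0.05. The test was checked on simulated data with the same setting of spread for all genes and both groups. That check does not cover the wider contralateral spread or the genes on 2 levels. Values are CPM with TMM factors, and log2 scores used a prior count of 2. The alternatives were DESeq2 1.42.0, limma 3.58.1 voom, other scaling factors and filters, all 12 libraries, a replicate block, summed overlapping gene models and leaving out libraries. Contralateral and ipsilateral libraries were compared in a fit of 12 libraries. GENCODE M21 held 98.85% of the gene identifiers, 80.88% of those with the same start and end. Named genes were those called (up to 15 each way), 12 higher and 12 lower of smallest p, up to 3 per list and further list members described by role, a fixed set, 5 higher and 5 lower of largest change without overlap, and up to 10 called by each alternative. Some genes the rule names are not described. The members and the 31 lists were chosen with earlier results of these data known.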

Additional observations from a re-analysis of the deposited data

Results flagged for a closer look

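The 4 values of a group were examined for 1 library far from the other 3, by Dixon's ratio of its gap to the group's range. This was done in 276 groups of values (genes named in the text, list scores and library totals), and 32 stood out. Chance flags about 1 in 20 groups, and many of the genes had been named because of their spread.

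In the contralateral group, contralateral 1 stood alone for Luc7l (46.8 CPM against 130 to 138 in the others), the protocadherin Pcdhgb4 (291 against 6.16 to 27.7), the striatal receptor genes Drd2 (8.77 against 0.885 to 1.06) and Adora2a (15.2 against 2.21 to 2.93), the striatum score (1.00 against -0.18 to -0.045) and the glucocorticoid-induced Zbtb16 (51.2 against 42.6 to 43.2). Contralateral 2 stood alone in its total (16.1 M counts against 17.6 to 17.9), in Pcdhgb1 (338 CPM against 8.54 to 49.1), in the calcium channel subunit gene Cacna2d1 (227 against 102 to 107) and in the serotonin receptor gene Htr1a (32.2 against 23.9 to 24.4). Contralateral 3 stood alone for the choroid plexus gene Ttr (5.71 CPM against 0.437 to 0.830). Contralateral 4 stood alone for Abl1 (71.0 CPM against 28.7 to 31.1), Ndst4 (11.3 against 1.48 to 2.21), Pds5a (64.1 against 42.3 to 43.6) and Pcdhgb2 (9.18 against 8.03 to 8.19).

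In the naive group, naive 1 stood alone for the potassium channel gene Kcnd3 (81.7 CPM against 12.01 to 14.8), for Drd2 (1.62 against 0.703 to 0.824) and for Tfap2d (1.67 against 1.17 to 1.25). Naive 2 stood alone for Pcdhgb2 (81.1 CPM against 9.73 to 10.01) and for Fkbp5, a glucocorticoid-induced chaperone gene (23.2 against 25.4 to 25.7). Naive 3 stood alone for Slc1a2 (2496 CPM against 316 to 509), Txndc5 (56.2 against 27.4 to 31.0), Lims1 (27.2 against 21.5 to 22.2), Mrpl44 (17.6 against 18.9 to 19.1), Rplp1 (159 against 188 to 192), Wdfy1 (19.9 against 22.5 to 22.8) and the score of opioid and endocannabinoid genes (0.057 against -0.020 to -0.017). Naive 4 stood alone for Nfe2l1 (415 CPM against 79.9 to 105), Pcdhga9 (360 against 11.8 to 36.1), Fam43b (34.7 against 30.3 to 30.9), Scn3b (27.5 against 32.7 to 33.6) and Zfp664 (109 against 122 to 124).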

How the results depend on the processing

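With all 8 libraries edgeR called 1 gene, contralateral against naive. The count was 1 with RLE or upper quartile factors and with a minimum of 1 CPM, 0 without a filter on low counts, 8 with DESeq2, 0 with limma voom, 0 in the fit of all 12 libraries and 0 with counts summed over overlapping gene models. Leaving out each library in turn gave 0 to 5. Leaving out contralateral 1 and 2 together, an alternative added after seeing the data, gave 25 called genes and a myelin median of -0.31. Against the ipsilateral side, leaving out a library gave 0 to 159. Library numbers are shared between groups, but deviations of same-numbered contralateral and naive libraries correlated at only -0.0072, -0.0032, -0.092 and 0.096, and 1 of 4 contralateral libraries correlated best with its own number; a fit with the replicate number as a block called 2 genes (Gm21982 and Ahdc1). Leaving out a library in turn moved the median of excitatory neuron markers from -0.14 to -0.0081 and that of perineuronal net genes from -0.053 to 0.039. It also turned the direction of some log2 fold changes, among them those of Ttr (1.49 with all libraries, -0.13 without contralateral 3) and Adora2a (1.15, and -0.048 without contralateral 1). They ranged from -0.0095 to 0.37 (Penk), -0.13 to 1.81 (Ttr), -0.57 to 0.037 (Aqp1), -0.048 to 1.41 (Adora2a), -0.041 to 0.070 (Ide), -0.33 to 0.045 (Pvalb), -0.0064 to 0.20 (Vip), -0.26 to 0.80 (Fos), -0.32 to 0.69 (Arc), -0.092 to 0.041 (Bdnf), -0.065 to 0.22 (Aif1) and -0.0010 to 0.10 (Fkbp5). The causes were not tested. Counts under 1 CPM limit Amdhd1, Tfap2d and Oprm1.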
